A study of Zea mays with 4 samples.

Results

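Maize leaf microRNAs were described in the unfed libraries CK1 and CK3, from plants of *Zea mays* at the stage of 4 leaves, without herbivory. The members were chosen by name and level: each distinct mature sequence was used once, had to carry a maize (zma) name, and had to reach 10 normalized reads in CK1 or CK3. This gave 82 sequences in 26 families, out of 110 maize-named sequences, beside 209 distinct sequences under other names, in a table of 500 rows. The series has 2 further libraries from leaves on which larvae of the fall armyworm (*Spodoptera frugiperda*) had fed, T1 after 1 day and T3 after 3 days. All 4 are small RNA libraries of total leaf RNA with 1 library per condition. The labels give the same tissue for CK1 and CK3 and name no treatment, no sampling time, no maize line and no number of plants. The protocol mentions a larger number of libraries, and whether a column stands for a single plant or a pool was not given. With 1 library on each side every difference is a size without a replicate check, and plant, sampling time and library preparation cannot be told apart.

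Plant microRNAs are cut by DICER-LIKE1 from hairpin precursors as a duplex of a 5p and a 3p strand, of which an Argonaute protein usually keeps one. The kept strand pairs with messenger RNAs along nearly its whole length and directs their cleavage or blocks their translation. In leaves the conserved families control growth, the change from juvenile to adult phase, auxin response, copper use, phosphate and sulfate nutrition, and the microRNA machinery itself. Because a mature microRNA is read whole, its level needs no correction for length, but adapters join some ends more readily than others. The order of levels below is therefore the order of normalized reads.

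The sequences that made up most of the maize-named reads are shown first, because the rank of families rests on them. They are written 5′ to 3′ as DNA letters, with capitals marking the seed (bases 2 to 8). Suffixes of the names are printed as deposited.
zma-miR168b-3p_R+1: cCCGCCTTgcatcaagtgaat
zma-miR408a: cTGCACTGcctcttccctggc
zma-miR528a-5p: tGGAAGGGgcatgcagaggag
zma-MIR397b-p5: tTGAGCGCagcgttgatgagc
zma-miR168a-5p: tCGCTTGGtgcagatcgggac
zma-miR166a-3p: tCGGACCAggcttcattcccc
zma-miR827-3p: tTAGATGAccatcagcaaaca
zma-miR444a_1ss12TC: tGCAGTTGttgcctcaagctt
zma-miR390a-5p: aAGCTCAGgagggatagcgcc
zma-miR396c_L-1: tCCACAGGctttcttgaactg

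Among the maize-named members, the most abundant families of the unfed leaf were miR168 and families that target copper proteins. The members held 34.9% of all listed normalized reads in CK1 and 26.3% in CK3, and sequences under other names were not ranked. The 3 leading families of each library held 47.3% of the members' normalized reads in CK1 and 53.3% in CK3, and the 10 leading sequences held 68.4% and 72.1%. The miR168 family, which targets the Argonaute AGO1, ranked first in both libraries, at 5501 normalized reads in CK1 and 4186 in CK3, or 24.6% and 21.2% of the members' reads. Most of these reads were of the 3p strand (4136 and 3207), while the strand known to target AGO1 is zma-miR168a-5p, at 1365 and 979. The miR408 family, which targets plantacyanins and laccases, ranked second in both at 2784 and 3889. The next place was not shared. In CK1 it went to miR528, a grass family whose targets include copper oxidases (2284, against 1274 in CK3). In CK3 it went to miR397, a family known to target laccases (2438, against 1202 in CK1, where it ranked 7). The precursor-named zma-MIR397b-p5 held 87.8% of the miR397 sum by the mean of both libraries, and its own targets were not tested.

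Next by the mean of both libraries came miR166, which targets HD-ZIP III factors of leaf polarity, at 1675 and 1092. The SPL regulator miR156, which maintains the juvenile phase, was at 1326 and 1219. The monocot family miR444, known in rice to target MADS-box factors, was at 1420 and 751. The family miR167, a regulator of auxin response factors, stood at 828 and 1216. Of these 8 leading families by the mean, 7 were also among the leading 8 of CK1 and all 8 were among those of CK3. The phosphate-related miR827 took the remaining place in CK1, at 1141 against 728 in CK3. Across the 26 families the ranks in the libraries had a Spearman's rho of 0.943, a description over families that share libraries. The order was set beside the number of precursor genes. The RefSeq annotation of the B73 genome (Zm-B73-REFERENCE-NAM-5.0) lists 2 precursor genes for each of the 4 leading families, against 18 for miR169, which ranked 17, and 14 for miR171, which ranked 18. It also lists 13 for miR166, 11 for miR156 and 10 for miR167, which are among the leading 8, so both few and many genes occurred at high levels. Names of precursor genes matched for 25 of the 26 families.

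**Figure D1:**
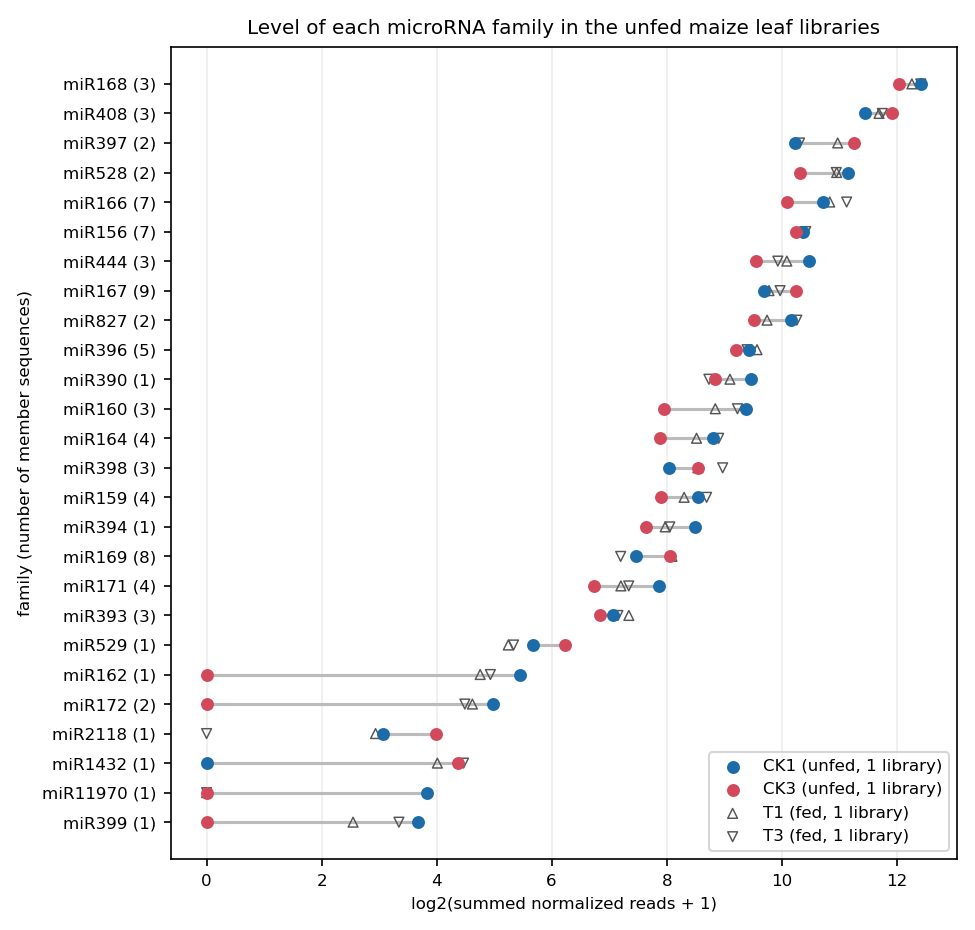
Summed normalized reads of each family, as log2(sum + 1), in CK1 and CK3 (filled, 1 library each) and in the fed libraries T1 and T3 (open triangles), with families ordered by the mean of CK1 and CK3. Among these maize-named families, miR168 and miR408 lead in both unfed libraries. The families miR162, miR172, miR399 and miR11970 are listed at 0 in CK3 but not in CK1.

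In lists drawn up by textbook target or role, the 4 copper and laccase families held 29.2% of the members' reads in CK1 and 40.4% in CK3. The 2 families of the small RNA machinery held 24.8% and 21.2%, and the 9 leaf growth and phase families, with 42 of the 82 sequences, 22.4% and 19.4%. The 5 auxin families (miR160, miR167, miR390, miR393 and miR394) held 12.03% and 11.3%. The 3 nutrition families (miR399, miR444 and miR827) held 11.5% and 7.50%. The lists include miR394 and miR444, although the targets named here are an F-box gene and MADS-box factors. Of the nutrition reads, miR444 gave 1420 in CK1 and 751 in CK3. The copper group thus held the largest share in both libraries, and its share differed most between them in percentage points. In proportion the nutrition share differed more.

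Arm use was mixed over the whole set, and the leading arm of each family was the same in both libraries. By summed reads the 3p arm held 40.1% in CK1 (95% exact binomial interval 39.6 to 40.7) and 34.8% in CK3 (34.2 to 35.4), the 5p arm 39.3% and 39.5%, and the 7 names without an arm 20.5% and 25.7%. The last group consists mostly of zma-miR408a. By number of sequences, 42 were 5p and 33 were 3p. Much of the share under 3p names came from 1 family: without miR168 it was 28.7% and 23.5%. These shares follow the names only. zma-miR408a, at 11.8% and 19.5% of the members' reads, gives no arm and is counted in neither. What the 3p strands held in full is therefore not shown. In miR168 the 5p sequence zma-miR168a-5p stood at 1365 and 979 normalized reads, while zma-miR168b-3p_R+1 from the other strand stood at 3889 and 3005. The ratio of the latter to the former was 2.85 in CK1 and 3.07 in CK3, and T1 and T3 gave 2.90 and 3.18.

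In each of the 15 families with both arms among the members, counting names that give an arm, the same arm led in CK1 and CK3, 5p in 9 and 3p in 6. The 5p share stayed within 5 percentage points in 8 of the 15. It was 94.4% and 94.2% in miR528, 9.68% and 9.98% in miR827, 5.27% and 6.05% in miR166 and 24.8% and 23.4% in miR168. Such shares do not depend on how the libraries were scaled. As deposited, the arms went in opposite directions in 2 families. In miR159, which targets GAMYB factors, the 3p sum went from 338 to 175 normalized reads and the 5p sum from 35.3 to 62.8, so that the 5p share was 9.46% in CK1 and 26.4% in CK3. It was 15.8% in T1 and 23.7% in T3. In miR393, which targets the TIR1 auxin receptors, the 5p sum went from 97.1 to 71.8 and the 3p sum from 36.1 to 42.1. The 3p log2 difference of miR393 was 0.218. Equal totals over all listed sequences, a scaling described below, shift CK3 by -0.228. The opposite directions in miR393 thus depended on the scaling. In miR396 the 5p share among names with an arm was 51.6% and 68.7%, with both sums lower in CK3. The leading miR396 sequence, zma-miR396c_L-1, gives no arm and is not in this share. In miR397 the 5p sequence more than doubled between the libraries while zma-MIR397b-p3 was at 215 and 228, and the 5p share was 82.1% and 90.7%.

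Sequences of 21 nt made up 91.0% of the members' reads in CK1 (95% exact binomial interval 90.7 to 91.4) and 89.1% in CK3 (88.7 to 89.5), though only 55 of the 82 sequences had that length. The 22-nt class held 4.01% and 5.57%, the 20-nt class 3.75% and 4.04% and the 23-nt class 1.08% and 1.31%. Single sequences of 19 and 24 nt, zma-miR159c-3p_L-1R-1 and zma-MIR171b-p5, were listed at 0 in CK3. A first base T (U in the RNA), which plant AGO1 prefers, began 45 sequences and 59.7% of the reads in CK1 and 54.6% in CK3. A first C began only 8 sequences but 31.8% and 36.8% of the reads. Of these 8, zma-miR168b-3p_R+1 and zma-miR408a carried most of the reads.

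**Figure D2:**
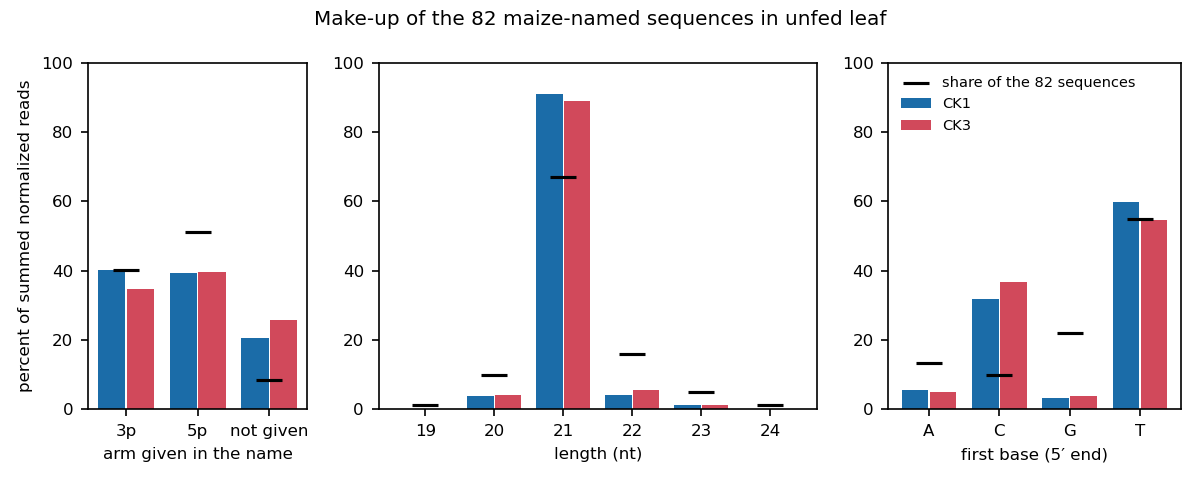
Share of the members' summed normalized reads by arm in the name, by length and by first base, in CK1 and CK3 (bars, 1 library each), with the share of the 82 sequences as a black line. The bars of CK1 and CK3 differ by less than 6 percentage points in every class, and 21 nt holds 91.0% and 89.1% of the reads but 67.1% of the sequences.

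Between the unfed libraries the log2 difference was negative (a lower value in CK3) for 51 of the 82 maize-named sequences and positive for 31, and most did not pass 2-fold. A sequence was called higher or lower when it differed at least 2-fold on the scale log2(normalized reads + 1) and reached 10 in the higher library. By this rule 9 of the 82 sequences were higher in CK3, 23 were lower and 50 were neither. The called ones were 39.0%, against 51.3% of all 187 distinct sequences that reached 10. By direction, 11.0% of the maize-named sequences were higher against 28.9% of all 187, and 28.0% were lower against 22.5%. Of the 105 sequences without a maize name, 61.0% were called, 42.9% higher and 18.1% lower. The median log2 difference, CK3 minus CK1, was -0.57 for the members and 0.22 for all 187. The 82 members held 34.9% of all listed normalized reads in CK1 and 26.3% in CK3, and what the larger share of other names in CK3 contributes to these differences was not tested.

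The balance depended on the scaling. With CK3 scaled to the total of CK1 over all listed sequences, the same 82 sequences gave 7 higher and 33 lower and a median of -0.80, and median-of-ratios scaling gave 7 and 33 and -0.79. Equal totals over maize-named sequences gave 12 and 21 and -0.40. Under each of these scalings more members were lower than higher in CK3. Over the 70 members listed in both libraries, log2 values had a Pearson's r of 0.910 and the log2 differences an SD of 0.98, a description over sequences that share libraries.

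**Figure D3:**
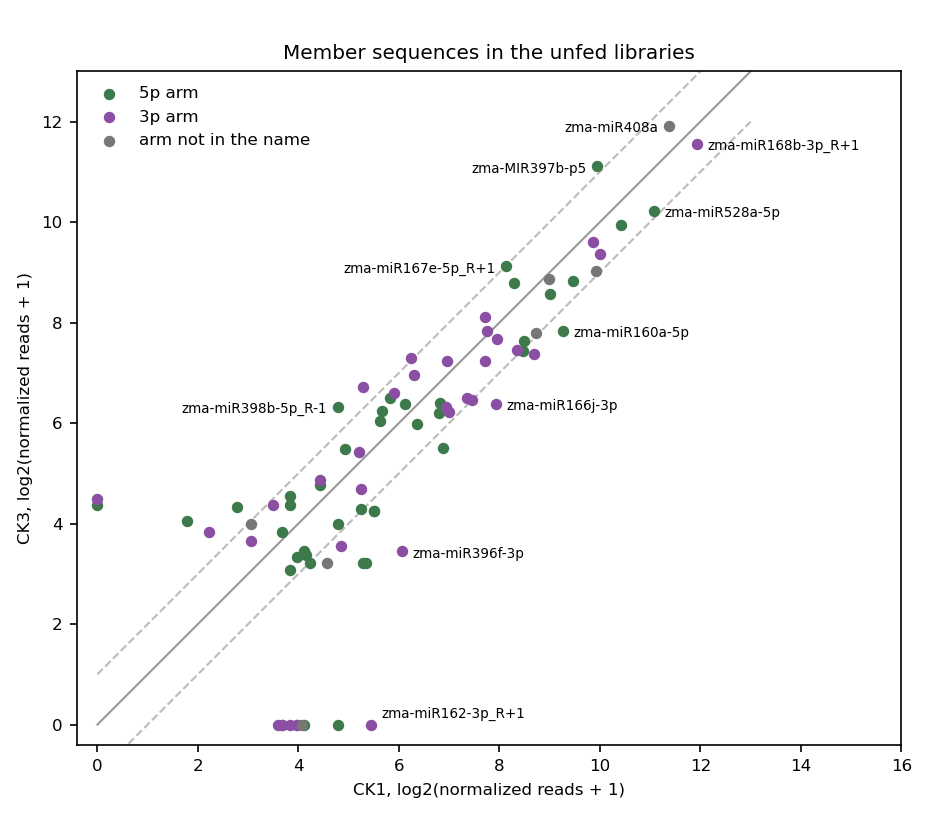
Each of the 82 member sequences by its level in CK1 and CK3, as log2(normalized reads + 1), coloured by arm. The solid line marks equal values and the dashed lines a 2-fold difference. Of the sequences listed in both libraries, 7 lie above the upper dashed line and 13 below the lower one, and 10 sequences lie on the axis because CK3 lists them at 0.

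The share of members called was lower at higher levels. Of the 30 members whose higher value was between 10 and 30 normalized reads, 17 were called (56.7%), against 7 of 17 from 30 to 100, 4 of 16 from 100 to 300 and 4 of 19 at 300 or more (21.1%). The size of the differences did not keep falling: the median absolute log2 difference was 1.33, 0.69, 0.64 and 0.84 in these classes. The lowest class says little, because a sequence near the minimum enters through the library where it is high. The 3 members just inside the minimum were zma-miR159c-3p_L-1R-1 at 11.0 in CK1 and listed at 0 in CK3, zma-miR156i-3p at 7.36 and 11.6, and zma-MIR160e-p3 at 11.8 and listed at 0. Just outside were zma-miR169i-3p_R+2 and zma-miR169m-3p_L+1, both listed at 0 in CK1 and at 9.91 in CK3, and zma-miR156a-3p at 8.83 and listed at 0. The 28 maize-named sequences below the minimum summed to 45.3 and 44.2 normalized reads, and 15 of them were listed at 0 in both.

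Most values were whole multiples of 1 step per library, 0.736 in CK1 and 0.826 in CK3, which was taken as the worth of 1 read. The members then stand for 30383 reads in CK1 and 23882 in CK3. Only 2 of the values above 0 in CK1 and 1 in CK3 lay below 5 reads, or 3.68 and 4.13 normalized reads, so a value of 0 can hide a level up to about that. Counting intervals for the ratio of CK3 to CK1, computed from these implied reads, covered counting error only. Among the 70 members listed in both libraries they lay wholly above 1 for 15, wholly below 1 for 32 and spanned 1 for 23.

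Steady families were few. A family was called steady when its sums differed by less than 0.32 on the scale log2(sum + 1), and variable at 2-fold or more. The steady ones were miR156, miR396 and miR393, 15 families lay in between, and 8 were variable, 2 higher (7.69%) and 6 lower (23.1%) in CK3. The variable ones are 30.8% of the 26 families, against 39.5% of the 43 families formed under any species name, where 20.9% were higher and 18.6% lower. The ratio of CK3 to CK1 was 0.919 for miR156 (95% exact counting interval 0.857 to 0.985), 0.859 for miR396 (0.778 to 0.948) and 0.856 for miR393 (0.681 to 1.07). None of the 3 was steady under every scaling: with equal totals over all listed sequences their log2 differences were -0.35, -0.45 and -0.45, and with equal maize totals 0.06, -0.04 and -0.04. miR156 was the only one of the 26 families whose direction changed with the scaling. Other families changed class. With equal totals over all listed sequences miR408 (0.25) and miR398 (0.27) were steady. There miR444 (-1.14), miR528 (-1.07), miR164 (-1.15) and miR394 (-1.08) passed 2-fold. Median-of-ratios scaling gave these 6 families the same classes. With equal maize totals miR2118 passed 2-fold (1.09).

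The sums of miR156 and miR396 joined members that went opposite ways. In miR156 the 20-nt sequence zma-miR156a-5p was at 310 normalized reads in CK1 and 441 in CK3, and zma-miR156j-5p_R-1, 1 letter away, was at 38.3 and 8.26. Its 5p sequence with a shifted seed, zma-miR156k-5p_L+1, was at 517 and 378. Among the 3p sequences of miR156, zma-miR156d-3p was at 123 and 150, zma-miR156e-3p_2ss13CA21TC at 209 and 150, zma-miR156k-3p_L+1 at 122 and 79.3 and zma-miR156i-3p at 7.36 and 11.6. Of the 7 sequences 3 had positive and 4 negative log2 differences, and only zma-miR156j-5p_R-1 was called. In miR396, which targets growth-regulating factors, the leading zma-miR396c_L-1 was at 506 and 467, with a counting interval of the ratio from 0.826 to 1.03. zma-miR396a-3p was at 20.6 and 28.1. The less abundant zma-miR396f-3p was at 66.2 and 9.91, and zma-miR396e-5p at 44.2 and 18.2, both called lower. In miR393 zma-miR393a-5p_L+1R-2 was at 80.9 and 61.9, zma-miR393a-3p_L-1 at 36.1 and 42.1 and zma-miR393b-5p_R-1 at 16.2 and 9.91.

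**Figure D4:**
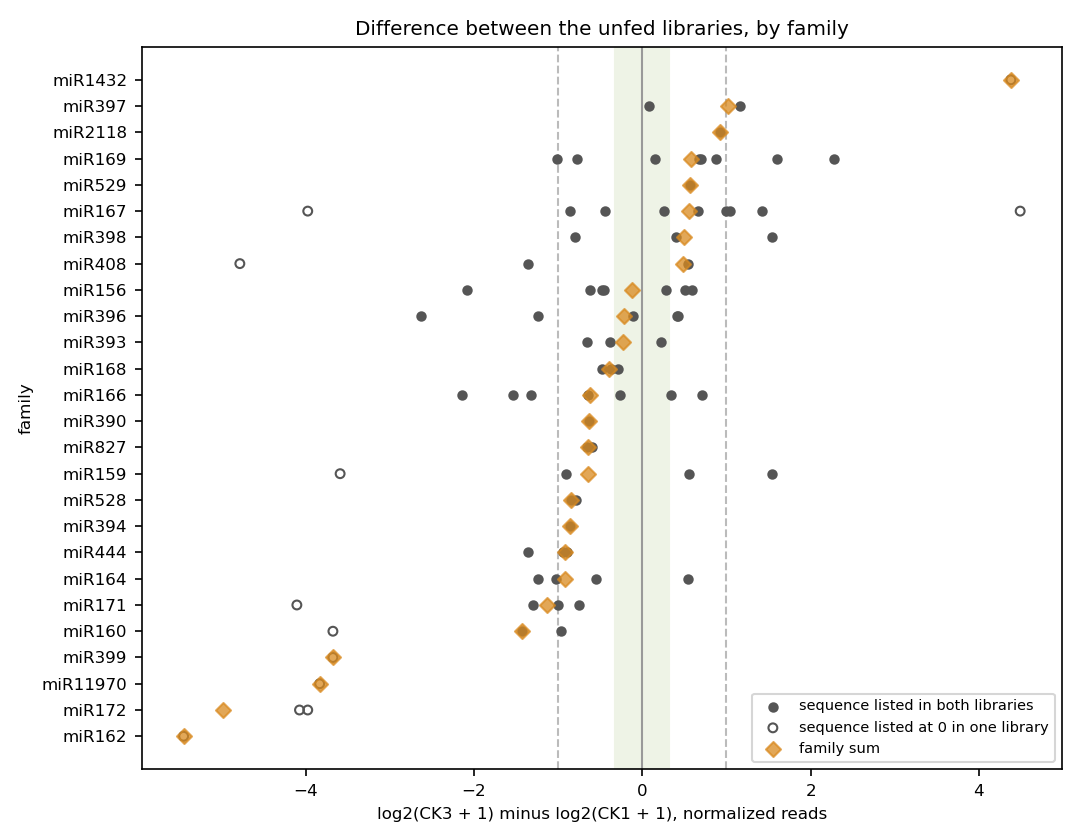
Log2 difference between CK3 and CK1 for every member sequence (circles, open where one library lists it at 0) and for the family sum (orange diamonds), with families ordered by their sum. The shaded band is the steady range and the dashed lines mark 2-fold. The diamonds of miR156, miR396 and miR393 lie in the band while their sequences spread to both sides of 0.

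The variable families were 3 of abundant or middle level and 5 near the lower limit. The abundant one was miR397, with a ratio of CK3 to CK1 of 2.03 (counting interval 1.91 to 2.16). Its difference passed 2-fold as deposited (log2 1.02) and with equal maize totals (1.20), but not with equal totals over all sequences (0.79) or median-of-ratios scaling (0.80). At a middle level was miR160, which targets auxin response factors, at 663 and 247 normalized reads with a ratio of 0.372 (0.325 to 0.424). It stayed past 2-fold under all 4 scalings. The GRAS regulator miR171 was at 233 and 105, a ratio of 0.453 (0.367 to 0.560), and passed under every scaling other than equal maize totals, where its log2 difference was -0.95. Over sequences of any species name the miR171 sum was 504 and 276, a log2 difference of -0.87, which does not pass 2-fold.

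The other variable families were listed at 0 in one unfed library, and each had under 50 normalized reads in the other. Their sequences are shown because the absence of the family rests on 1 or 2 of them.
zma-miR162-3p_R+1: tCGATAAAcctctgcatccag
zma-miR172a_R+1: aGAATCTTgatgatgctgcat
zma-miR172c-5p_L+1: gCAGCACCaccaagattcaca
zma-miR399f-5p: gGGCAACTtctcctttggcaga
zma-MIR11970-p3_1ss16AG: aAAGATTAttgagctggtgg
zma-miR1432-5p_L-1R+1: tCAGGAGAgatgacaccgacg
zma-miR162-3p_R+1, from the family that targets DICER-LIKE1, was at 42.7 in CK1, listed at 0 in CK3, and at 26.04 in T1 and 29.6 in T3. zma-miR172a_R+1 and zma-miR172c-5p_L+1 come from miR172, a family that targets AP2 factors and promotes the adult phase. The latter has a 5p name and another seed, and its own targets were not tested. They stood at 15.8 and 14.7 in CK1, were both listed at 0 in CK3, and gave 11.5 and 12.1 in T1 and 10.2 and 11.3 in T3. The sequence zma-miR399f-5p, from a family that targets the phosphate regulator PHO2, stood at 11.8 in CK1, with 4.84 and 9.15 after feeding, and CK3 lists it at 0. These 3 families were thus above 0 in CK1, T1 and T3. zma-MIR11970-p3_1ss16AG was at 13.2 in CK1 and listed at 0 in the other 3 libraries. zma-miR1432-5p_L-1R+1 was listed at 0 in CK1 alone and stood at 19.8 in CK3, with 15.1 and 21.1 after feeding.

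Another 5 members were listed at 0 in CK3, namely zma-miR408b-5p_L+1 at 26.5 in CK1, zma-MIR171b-p5 at 16.2, zma-miR167f-3p at 14.7, zma-MIR160e-p3 at 11.8 and zma-miR159c-3p_L-1R-1 at 11.0. In the other direction zma-miR167e-3p was listed at 0 in CK1 and at 21.5 in CK3. In all, 10 of the 23 lower members and 2 of the 9 higher ones rested on a value of 0. Among members listed in both libraries, the largest decreases were zma-miR396f-3p, with a log2 difference of -2.62, zma-miR166m-5p_L-2R+2 with -2.14 and zma-miR156j-5p_R-1 with -2.08. The largest increases were zma-miR169a-5p_L+2R-2 with 2.27, from 2.45 to 15.7 normalized reads, zma-MIR169a-p3 with 1.60, from 3.68 to 13.2, zma-miR398b-5p_R-1 with 1.55, from 26.5 to 79.3, and zma-miR159a-5p with 1.54, from 5.89 to 19.0.

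The copper families did not move together. zma-MIR397b-p5 was at 988 normalized reads in CK1 and 2210 in CK3, and at 1734 in T1 and 1035 in T3, so that CK1 and T3 were the low libraries. zma-miR408a was at 2641 and 3844, a ratio of 1.46 (counting interval 1.39 to 1.52), with 3110 in T1 and 3332 in T3. Its less abundant 5p relatives went the other way, zma-MIR408a-p5 from 116 to 44.6 and zma-miR408b-5p_L+1 from 26.5 to a listed 0. zma-miR398a-3p, from the family that targets Cu/Zn superoxide dismutases, was at 210 and 277. zma-miR528a-5p was at 2157 and 1201 and zma-miR528a-3p at 127 and 73.5, and the fed libraries lay between them at 1857 and 1867 for the 5p sequence. Set against miR528 within each library, the miR397 sum was 0.526 in CK1 and 1.91 in CK3, with 1.01 and 0.642 in T1 and T3, a ratio no scaling of a library changes. The same ratio for miR408 was 1.22, 3.05, 1.67 and 1.74. In both ratios CK3 was the highest library and CK1 the lowest. Of the 10 copper sequences 2 were higher, 2 lower and 6 neither, with a median log2 difference of -0.35 beside -0.57 and 39.0% called for all members.

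The auxin families also diverged. miR160 was more than 2-fold lower in CK3, whereas miR167, which targets other auxin response factors, was at a ratio of 1.47 (1.36 to 1.59). Within a library the miR167 sum was 1.248 times the miR160 sum in CK1 and 4.93 times in CK3, against 1.91 in T1 and 1.67 in T3. The leading miR167 sequence, zma-miR167e-5p_R+1 of 22 nt, was at 279 and 557, just short of 2-fold on the scale with 1 added. The 21-nt zma-miR167e-5p, which lacks its last letter, was at 68.7 and 82.6, and zma-miR167a-5p at 113 and 82.9. Of the 3p sequences, zma-miR167c-3p was at 75.1 and 155, zma-miR167j-3p_L+1 at 38.3 and 104, zma-miR167g-3p_L+1 at 78.0 and 124, and zma-miR167h-3p_L+1R+1 at 161.9 and 89.2. miR390, which triggers the tasiRNAs that act on auxin response factors, was at 706 and 457, and miR394, which targets an F-box gene, at 360 and 198. Of the 17 auxin sequences 3 were higher, 3 lower and 11 neither, with a median of -0.44, beside 39.0% called among all members.

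In the leaf growth and phase families 3 of 42 sequences were higher, 14 lower and 25 neither, with a median of -0.51 beside -0.57 for all members. Among all 82 members 11.0% were higher and 28.0% lower, so these counts are close to those of the whole set. The 3p seed of miR166 was carried by 3 sequences that all stood lower in CK3 but by different amounts. zma-miR166a-3p was at 932 and 778, zma-miR166l-3p at 412 and 165 and zma-miR166j-3p at 242 and 82.4. The first stood at 2.26 times the second in CK1 and 4.72 times in CK3, while the fed libraries gave 3.93 and 4.14. On the 5p arm of miR166, zma-miR166m-5p_L-2R+2 was at 39.7 and 8.26, zma-miR166a-5p_L-1R+1 at 20.6 and 26.4, zma-miR166b-5p at 13.2 and 22.3 and zma-miR166c-5p at 14.7 and 9.08. In miR164, which targets NAC factors, zma-miR164a-5p was at 354 and 173 and zma-miR164f-5p at 44.4 and 18.2, both called lower, while zma-miR164e-5p was at 13.2 and 19.8. zma-miR159a-3p was at 327 and 175.

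Of the growth families, only miR169, known to target nuclear factor Y genes, and miR529 had a higher sum in CK3. For miR169 the higher sum rested mostly on precursor-named sequences. miR169 stood at 177 and 265 normalized reads, and at 272 and 146 after feeding for 1 and 3 days. Its most abundant sequences, both from 1 precursor name, were zma-MIR169c-p5 (55.4 and 89.2) and zma-MIR169c-p3 (58.9 and 95.8), with log2 differences of 0.68 and 0.69. Of its other precursor-named sequences, zma-MIR169g-p3 was at 10.3 and 19.8, a log2 difference of 0.88, and zma-MIR169a-p3 differed by 1.60 as given above. Among its sequences with mature names zma-miR169f-5p_R+2 was at 17.7 and 8.26 and was called lower, with a counting interval of the ratio from 0.20 to 1.01. Together with zma-miR169i-5p and zma-miR169c-5p, which share its seed, it summed to 46.1 and 30.8, a log2 difference of -0.57. Of these 3 sequences 1 had a higher value in CK3, as did zma-miR169a-5p_L+2R-2, given above. miR529, which shares SPL targets with miR156, gave 50.04 and 74.3 normalized reads in CK1 and CK3 but 36.9 and 39.4 after feeding, so that both fed values lay below both unfed ones.

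In the small RNA machinery and nutrition families every sequence had a negative log2 difference, but only the sums of miR162 and miR399, both listed at 0 in CK3, passed 2-fold. All 3 miR168 sequences had similar log2 differences, -0.37 for zma-miR168b-3p_R+1, -0.48 for zma-miR168a-5p and -0.28 for zma-miR168a-3p_R+1, and none was called. With equal maize totals the difference of the miR168 sum, -0.39 as deposited, was -0.21 and within the steady range. The 3 miR444 sequences were also close to one another. zma-miR444a_1ss12TC was at 971 and 523 and zma-miR444a at 426 and 220, with a ratio between them of 2.28 in CK1 and 2.37 in CK3, beside 2.25 and 2.16 in T1 and T3. The remaining one, zma-miR444a_R-1_1ss12TC, was at 22.8 and 8.26. zma-miR827-3p was at 1030 and 656 and zma-miR827-5p_L+1 at 110 and 72.7. Of the 6 nutrition sequences none was higher, 2 were lower and 4 neither, with a median of -0.92, and 2 of 6 is close to the 28.0% lower among all members. The sole phasiRNA trigger, zma-miR2118b, was at 7.36 and 14.9, a ratio of 2.02 whose counting interval (0.88 to 4.90) spanned 1. Over sequences of any species name the miR2118 sum was 22.8 and 57.0, a log2 difference of 1.28, which passes 2-fold.

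Near-identical sequences show where a family sum hides divergence. Among the 82 members 22 pairs were at most 2 letters apart, all within a family, and 12 of these were 1 letter apart. Of the 12, 7 pairs had log2 differences of the same sign and 5 of opposite sign, and the differences within a pair were at least 1 on the log2 scale in 5. In the 3 pairs where one sequence contains the other, both went the same way. The following sequences share a seed within each family. They are shown for miR156 and miR396, where the 1-letter pair went opposite ways, for miR166, where both differed in size from zma-miR166a-3p printed above, and for pairs in miR160, miR164 and miR168 that went the same way. In miR168 the partner is zma-miR168b-3p_R+1, also printed above.
zma-miR156a-5p: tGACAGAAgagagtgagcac
zma-miR156j-5p_R-1: tGACAGAAgagagagagcac
zma-miR396a-5p: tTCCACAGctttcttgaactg
zma-miR396e-5p: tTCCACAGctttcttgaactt
zma-miR166l-3p: tCGGACCAggcttcattcctc
zma-miR166j-3p: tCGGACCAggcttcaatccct
zma-miR160a-5p: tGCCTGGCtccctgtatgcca
zma-miR160f-5p_R-1: tGCCTGGCtccctgtatgcc
zma-miR164a-5p: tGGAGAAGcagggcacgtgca
zma-miR164f-5p: tGGAGAAGcagggcacgtgct
zma-miR168a-3p_R+1: cCCGCCTTgcaccaagtgaat
The widest gap was in miR156, where zma-miR156a-5p stood at 8.11 times zma-miR156j-5p_R-1 in CK1 and 53.4 times in CK3, against 9.63 in T1 and 10.01 in T3. CK3 was thus the library apart in this ratio, which rests there on 10 implied reads of zma-miR156j-5p_R-1. The second widest was in miR396, where zma-miR396a-5p was at 48.6 and 65.2 and zma-miR396e-5p at 44.2 and 18.2, a ratio of 1.10 in CK1 and 3.59 in CK3, beside 1.48 and 0.981 in T1 and T3. By contrast zma-miR160a-5p (615 and 228) and zma-miR160f-5p_R-1 (37.1 and 18.5) were both lower in CK3, as were both of the miR164 pair, although zma-miR164e-5p with the same seed had a higher value in CK3. Over all members 63 different seeds occurred, 14 of them on more than 1 sequence and none in more than 1 family. How reads of near-identical sequences were assigned is not given in the sources used here, and part of the values were fractions of the step, so such pairs may share reads.

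**Figure D5:**
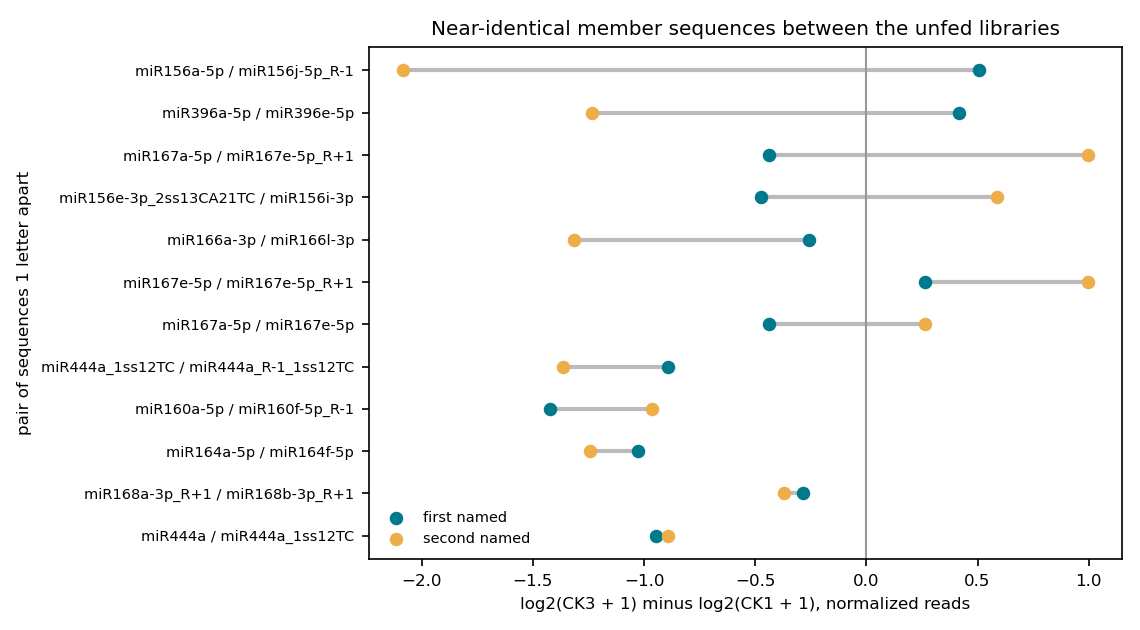
Log2 difference between CK3 and CK1 for the 12 pairs of member sequences that are 1 letter apart, ordered by the gap within the pair. In 5 pairs the points lie on opposite sides of 0, the widest being zma-miR156a-5p and zma-miR156j-5p_R-1.

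Set beside the fed libraries, the spread between CK1 and CK3 covered many of the fed values of the members, which were chosen by their unfed level. The family sum in T1 lay between the unfed sums, or equal to one, in 19 of 26 families, above both in 5 and below both in 2. In T3 it lay between them in 14, above in 8 and below in 4, and in 13 families both fed sums lay between. Of the 82 sequences T1 lay between in 54, above in 20 and below in 8, and T3 between in 42, above in 27 and below in 13. These positions share the unfed libraries and are given as counts only. A member without listed reads in CK1 or CK3 could not lie below both. Another 5 maize-named sequences reached 10 normalized reads after feeding but in neither unfed library, and were not counted. Because of this choice of members, the counts cannot show how often fed values leave the unfed range among all maize-named sequences. The fed libraries were deeper, with 72313 and 65003 implied reads for the members.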

How the data were processed

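Small RNA from leaves was sequenced in 4 libraries, of which CK1 and CK3 are compared here. Per the labels' protocols, RNA was extracted with Trizol and libraries were made with a TruSeq Small RNA kit for an Illumina HiSeq instrument. The deposited columns hold, per the file headers, a normalized signal (normalized reads) for each microRNA sequence. How the authors scaled, mapped and called the reads, and on which genome build, is not given in the sources used here. Length is the deposited length column.

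A sequence on several rows had the same values on each and was used once, under the first maize name. Family and arm were read from the name. Differences are log2(value + 1), CK3 minus CK1, without a test, since each library is the only one of its kind. Implied reads came from the largest step that divided at least 85% of low values evenly, within 0.02 of a read. This held for 91.7% of values above 0 in CK1 and 91.5% in CK3, so no count model was used. Intervals are exact (Clopper-Pearson, 95%) and cover counting error only. No molecular identifiers are mentioned, so reads need not stand for independent molecules. Step and calls were run on simulated data. For the calls these data held no counting noise and no zeros, so they checked the code and not the reliability of a call. All listed sequences summed to 64034 normalized reads in CK1 and 75008 in CK3, which is not the total depth of the libraries.

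The members, family lists and thresholds were chosen with earlier results of these data known. The families and sequences named were, by rule, every family, the 10 most abundant sequences, the 10 largest differences in each direction, all members of the 8 leading families, families whose arms differed in direction, and the neighbours of the minimum. Ratios between families and the pairs of near-identical sequences were chosen after the values were seen. Alternatives were other pseudocounts, minimum values, scalings and ways to form sums. Software was Python 3.11.15 with pandas 2.3.3, NumPy 2.4.6 and SciPy 1.17.1. Sequences are those of the deposited table, and precursor gene numbers are from RefSeq.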

Additional observations from a re-analysis of the deposited data

How the results depend on the processing

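With 1 library on each side no replicate could be left out, and no statement here has a p-value. Of 56 alternatives 38 stayed near the reported value by a wide rule. For counts it took 33 lower sequences as near the reported 23, and 2 steady families as near the reported 3. For shares it meant a value inside the counting interval. With a minimum of 50 normalized reads, 4 sequences were higher and 6 lower of 43, and 1 family was higher and 2 lower of 20. Fewer entries were compared there, and as given above the share of members called was lower at higher levels. Equal maize totals gave 14 higher sequences of 84, a number that includes newly admitted ones. Equal totals over all listed sequences and median-of-ratios scaling each gave 1 higher and 10 lower families. The cause was not tested. The 3p share in CK1 was 28.7% without miR168 and 49.4% over sequences of any name, and in CK3 23.5% and 47.5%. The 21-nt share in CK1 was 67.1% by number of sequences, 88.1% without miR168 and 58.1% over any name, and in CK3 86.1% without miR168 and 53.8% over any name. Sequences with identical values that contain one another did not occur among the maize names, so merging could change nothing, although it counts among the 38. Values under the level of 5 reads limit what a listed 0 can show.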

Other observations

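Among the 105 sequences without a maize name that reached 10 normalized reads, 45 were higher in CK3 (42.9%) and 19 were lower (18.1%), and 24 nt was the only length with more lower than higher ones. Of the 13 sequences of 24 nt, 1 was higher in CK3 and 7 were lower, and their summed level was 368 in CK1 and 170 in CK3, beside 251 and 254 in T1 and T3. Of the 12 sequences of 18 nt, 7 were higher and 1 lower, with sums of 194 in CK1 and 620 in CK3 (220 and 391 after feeding), and of the 10 of 19 nt 7 were higher and 2 lower, with sums of 254 and 1318 (221 and 438 after feeding). The other lengths had 5 higher and 3 lower of 11 (20 nt), 6 and 2 of 19 (21 nt), 8 and 2 of 23 (22 nt), 7 and 1 of 12 (23 nt) and 4 and 1 of 5 (25 nt). By first base, 12 of 16 beginning with C and 14 of 23 beginning with G were called higher, against 12 of 32 with A and 7 of 34 with T. Origin of these sequences was not checked against a genome, and the members described above do not include them.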
